A study of Mus musculus with 6 samples.

Results

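The annexin family was followed on Affymetrix mouse expression arrays through 7 probe sets, 1 for each of Anxa1 to Anxa7, out of 45101 probe sets on the array. Any other probe sets for these genes were not read, so what is said of each gene rests on 1 probe set. A probe set is the group of short oligonucleotides whose signals are combined into 1 value for a transcript. The 7 were chosen by identifier, with no measured value in the rule: 1448213_AT for Anxa1, 1419091_A_AT for Anxa2, 1460330_AT for Anxa3, 1424176_A_AT for Anxa4, 1425567_A_AT for Anxa5, 1415818_AT for Anxa6 and 1416138_AT for Anxa7. They were chosen with earlier results of these data known, so the share called among them is not that of a blind choice. Neutrophils lacking the microRNA miR-223 (3 arrays, miR-223 null) were compared with wild-type neutrophils (3 arrays), so the question is how each annexin mRNA differs where this microRNA is absent. Cells of both genotypes were grown from bone marrow progenitors of mice of unstated age and strain, over 6 days in SILAC medium (an isotope-labelling medium) supplemented with SCF (stem cell factor) and G-CSF (the growth factor that drives granulocyte production), followed by 42 hours after SCF was withdrawn. Live cells were taken by magnetic sorting, and total RNA was labelled with biotin. Separate mice or cultures are not stated for the replicates, and a p-value therefore covers only the spread among these 6 arrays, part or all of which may be technical.

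Annexins bind membranes that carry acidic phospholipids when calcium rises. They share a core built of repeated calcium-binding domains and differ mainly in the tail before it. In neutrophils they are studied for their part in granule traffic, membrane repair, the clearance of dying cells and, for Anxa1, the ending of inflammation. MicroRNAs lower the level or translation of mRNAs that pair with them, chiefly through the seed, bases 2 to 8 of the mature strand. The mature strands of the gene that the null cells lack are printed below in RNA letters, as RefSeq gives them for build GRCm38.p6, because their absence is what separates the groups. The seed is in capitals.
mmu-miR-223-3p: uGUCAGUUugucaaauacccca
mmu-miR-223-5p: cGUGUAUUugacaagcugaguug
Both lie on the plus strand of the X chromosome, the 3p strand of 22 bases at chrX:96242884-96242905 and the 5p strand of 23 bases at chrX:96242842-96242864. The mRNA letters that pair with the 3p seed read AACUGAC. Transcript sequences of the annexins were not used here, so whether any of the 7 mRNAs holds these letters was not tested. The level of miR-223 was not analysed here, and no cell type markers could be named on the array, so the labels for genotype and cell type were not checked against the data.

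The values are log2 intensities on arrays of closely matched scale, whose medians differed by 0.0146 log2 units at most. The arrays of replicate 1 stood apart in both genotypes: the first principal component, with 48.7% of the variance, placed them at -35.91 (null) and -29.45 (wild type), while the other 4 arrays lay between 8.04 and 23.39. The second component, with 27.5%, separated the 3 null from the 3 wild-type arrays. All 7 annexin probe sets were among the 27022 whose mean over the 6 arrays was at least 4.08, the lower limit for testing. Calls were made at an adjusted p under 0.05 (limma with Benjamini-Hochberg adjustment over all 27022).

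Anxa3 mRNA was higher in miR-223 null neutrophils, and it was the only annexin of the 7 that passed the test without regard to replicate number. Anxa5 was also higher on every null array than on any wild-type array, where 16.8% of all tested probe sets showed no overlap between the genotypes. It passed only just (limma adjusted p = 0.0499) when arrays with the same replicate number were compared with each other (the replicate block). How replicates 2 and 3 pair is less sure. Anxa4 was lower in every pair of arrays, where 46.6% of all tested probe sets went one way, but passed in neither fit. Anxa1, Anxa2, Anxa6 and Anxa7 passed in neither fit, with differences of at most 0.09 log2 units in size. The call on 1 of 7 annexins stands beside 0.189% of all probe sets called (51 of 27022), with 0.141% called as higher (38) and 0.0481% as lower (13) in null cells. With the replicate block, 2 of 7 were called, both higher, against 10% of all probe sets called (2703), 4.96% as higher (1339) and 5.05% as lower (1364). Among the 9007 brightest tested probe sets, where Anxa1, Anxa2, Anxa3, Anxa5 and Anxa7 belong, 0.355% were called without the block and 19.1% with it.

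**Figure D1:**
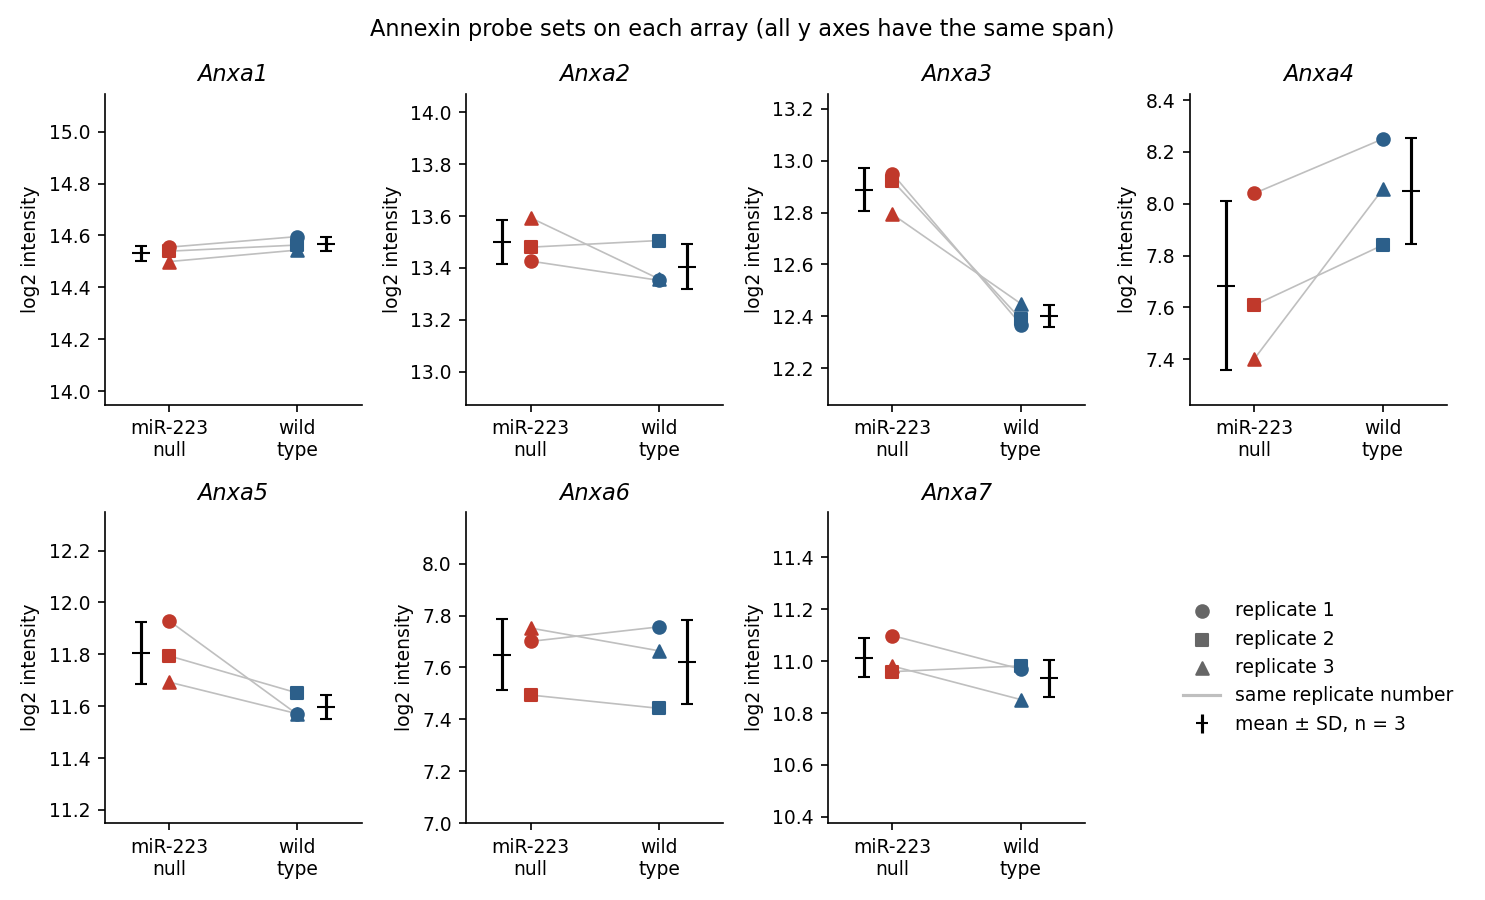
Log2 intensity (y axes, all of the same span) of the 7 annexin probe sets in miR-223 null and wild-type neutrophils; symbols mark the replicate number, grey lines join arrays of the same number, and black bars give the mean ± SD of 3 arrays. The null arrays lie wholly above the wild-type arrays for Anxa3 and Anxa5, while the groups overlap for the other 5.

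Anxa3 is abundant in neutrophils and was purified from human neutrophils as a protein that makes granules aggregate. Its probe set read 12.95, 12.92 and 12.79 log2 units on null arrays 1, 2 and 3, against 12.37, 12.39 and 12.45 on wild-type arrays 1, 2 and 3. The lowest null array lay above the highest wild-type array, so the groups did not overlap. The means were 12.89 ± 0.08 in null and 12.40 ± 0.04 in wild-type cells (SD, n = 3 each), a difference of 0.49 log2 units (SE 0.06) or 1.40-fold, with a 95% interval of 1.27- to 1.55-fold. The limma adjusted p was 0.0404 without the block and 0.00274 with it. Within the pairs of replicates 1, 2 and 3 the null array was higher by 0.58, 0.53 and 0.34 log2 units. The smallest rise was thus in replicate 3, where the null array was the lowest of its group and the wild-type array the highest. An exact two-sided permutation test of 3 arrays against 3 gave p = 0.1, the smallest it can give.

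The size of the Anxa3 rise was modest and its limma standard error small. That standard error was below that of all but 1.37% of tested probe sets, whose median standard error was 0.125 log2 units. With the block, 8.07% had a smaller one. The limma standard error depends on the variance model as well as on the spread between arrays. Without the intensity trend it was 0.089 log2 units for Anxa3. By unadjusted p Anxa3 ranked 40 among the 27022, and by size of the difference it ranked 859. Of the 51 calls, 48 had a larger difference than Anxa3 and 2 a smaller one, and their median size was 1.10 log2 units. With the block, 732 of the 2703 calls had a larger difference and 1970 a smaller one.

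Without the block the Anxa3 call lay close to the threshold, while its direction and size changed little. Leaving out any 1 of the 6 arrays ended the call without the block, with limma adjusted p from 0.0605 (without null 1) to 0.266 (without null 2), and the difference then lay between 0.46 and 0.53 log2 units. The call was also lost when the intensity trend was left out of the variance model, both without the block (limma adjusted p = 0.118) and with it (limma adjusted p = 0.0646), and when the variance was not moderated (adjusted p = 0.137), a fit that called 0 probe sets in all and 2929 at an unadjusted p under 0.05. Without both replicate 1 arrays the difference was 0.44 log2 units and passed (limma adjusted p = 0.0108). With the replicate block, Anxa3 also passed when 1 pair was left out. The limma adjusted p was then 0.00373 without replicate 1, 0.0145 without replicate 2 and 0.000377 without replicate 3. How replicates 2 and 3 pair is less sure.

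Anxa5 binds phosphatidylserine, the lipid that dying cells expose, and its labelled protein is the common stain for apoptotic cells. Its probe set read 11.93, 11.79 and 11.69 on null arrays 1, 2 and 3, against 11.57, 11.65 and 11.57 on the wild-type arrays. Every null array was above every wild-type array, with null 3 and wild-type 2 the closest, and null 1 was the highest of all 6. The means were 11.81 ± 0.12 in null and 11.60 ± 0.05 in wild-type cells (SD, n = 3 each), a difference of 0.21 log2 units (SE 0.08) or 1.16-fold, with a 95% interval of 1.02- to 1.31-fold. It did not pass without the block (limma adjusted p = 0.397, unadjusted p = 0.0297), and with the block it lay just inside the threshold (limma adjusted p = 0.0499). Across all tested probe sets 16.8% showed no overlap between the genotypes, and 20.8% of the brightest 9007 did, beside 2 of the 7 annexins.

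The difference in Anxa5 was largest in the replicate 1 pair. The null array was higher by 0.36 log2 units in replicate 1, by 0.14 in replicate 2 and by 0.12 in replicate 3. Null 1 exceeded the mean of the other null arrays by 0.19 log2 units, while wild-type 1 was 0.04 below the mean of the other wild-type arrays. Without both replicate 1 arrays the difference was 0.13 log2 units and did not pass (limma adjusted p = 0.267). With a block of replicate 1 against the others, the Anxa5 difference did not pass either (limma adjusted p = 0.0583). Blocked by replicate, it did not pass without the replicate 1 pair (limma adjusted p = 0.162) or without the replicate 2 pair (limma adjusted p = 0.135), and it passed without the replicate 3 pair (limma adjusted p = 0.0322).

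Anxa4, an annexin best known from secretory epithelia, where it gathers at membranes as calcium rises, had the largest negative difference of the 7 and also the largest spread. It read 8.04, 7.61 and 7.40 on null arrays 1, 2 and 3, against 8.25, 7.84 and 8.06 on the wild-type arrays. Null 1 lay between the wild-type values of replicates 2 and 3, so the groups overlapped. The null array was the lower one in 3 of 3 pairs, where 46.6% of all tested probe sets went one way in all 3 pairs. The means were 7.68 ± 0.33 in null and 8.05 ± 0.20 in wild-type cells (SD, n = 3 each), a difference of -0.37 log2 units (SE 0.19), so that the null signal was 77.6% of the wild-type signal. It passed neither without the block (limma adjusted p = 0.554) nor with it (limma adjusted p = 0.0618, unadjusted p = 0.00733). Null minus wild type was -0.21 log2 units in replicate 1, -0.23 in replicate 2 and -0.65 in replicate 3, the largest in size.

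The level of Anxa4 was highest on the replicate 1 array of each genotype. Null 1 exceeded the mean of null 2 and 3 by 0.54 log2 units, and wild-type 1 exceeded that of wild-type 2 and 3 by 0.30, beside the difference of -0.37 between genotypes. Spiked poly-A control transcripts were also highest on these arrays, with means of 8.92 (null 1) and 8.77 (wild-type 1) where the remaining 4 arrays ranged from 8.16 to 8.58, and their part in the level of Anxa4 was not tested. Without both replicate 1 arrays the difference was -0.44 log2 units (limma adjusted p = 0.0881). The difference was -0.54 without null 1 (limma adjusted p = 0.222) and -0.22 without null 3 (limma adjusted p = 0.759). With a block of replicate 1 against the others, Anxa4 did not pass (limma adjusted p = 0.0522).

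Anxa1, the glucocorticoid-induced annexin that acts through formyl peptide receptors to limit neutrophil recruitment, varied least. It read 14.55, 14.54 and 14.50 in null cells and 14.60, 14.56 and 14.54 in wild-type cells for replicates 1, 2 and 3. The null array was lower in each pair, by 0.02 to 0.04 log2 units, yet null 1 lay within the wild-type range, so the groups overlapped. The difference was -0.04 log2 units (SE 0.03, limma adjusted p = 0.776 without and 0.412 with the block), with a 95% interval from 0.92- to 1.03-fold. The Anxa1 signal stood only 0.39 to 0.48 log2 units below the brightest value on each array. Whether a signal that near the top of the scale understates differences was not tested.

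Anxa2 forms a complex with the S100 protein S100a10 at the inner face of the cell membrane and binds plasminogen at the cell surface. It read 13.43, 13.48 and 13.59 in null cells and 13.35, 13.51 and 13.36 in wild-type cells for replicates 1, 2 and 3. Wild-type 2 lay above null 1 and 2, and the null array was higher in 2 of 3 pairs. The difference was 0.09 log2 units (SE 0.06, limma adjusted p = 0.674 without and 0.266 with the block), with a 95% interval from 0.96- to 1.18-fold.

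Anxa6, which carries a duplicated annexin core and is linked to endosome traffic and cholesterol handling, had the smallest difference in size of the 7. Its probe set read 7.70, 7.49 and 7.75 in null cells and 7.76, 7.44 and 7.66 in wild-type cells for replicates 1, 2 and 3. Replicate 2 was the lowest array in each genotype, and the difference between genotypes was 0.03 log2 units (SE 0.13, limma adjusted p = 0.971 without and 0.865 with the block). Its 95% interval ran from 0.83- to 1.25-fold, wider than those of Anxa1, Anxa2 and Anxa7. With the block the 95% interval of the difference was narrower, from -0.14 to 0.20 log2 units against -0.27 to 0.33 without it.

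Anxa7, named synexin for its action on chromaffin granule membranes, has a long tail that sets it apart from the shorter annexins. It read 11.10, 10.96 and 10.98 in null cells and 10.97, 10.98 and 10.85 in wild-type cells for replicates 1, 2 and 3. The groups overlapped, and the null array was higher in replicates 1 and 3, by 0.13 log2 units each, and 0.02 lower in replicate 2. The difference was 0.08 log2 units (SE 0.08, limma adjusted p = 0.796 without and 0.354 with the block), with a 95% interval from 0.93- to 1.20-fold.

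**Figure D2:**
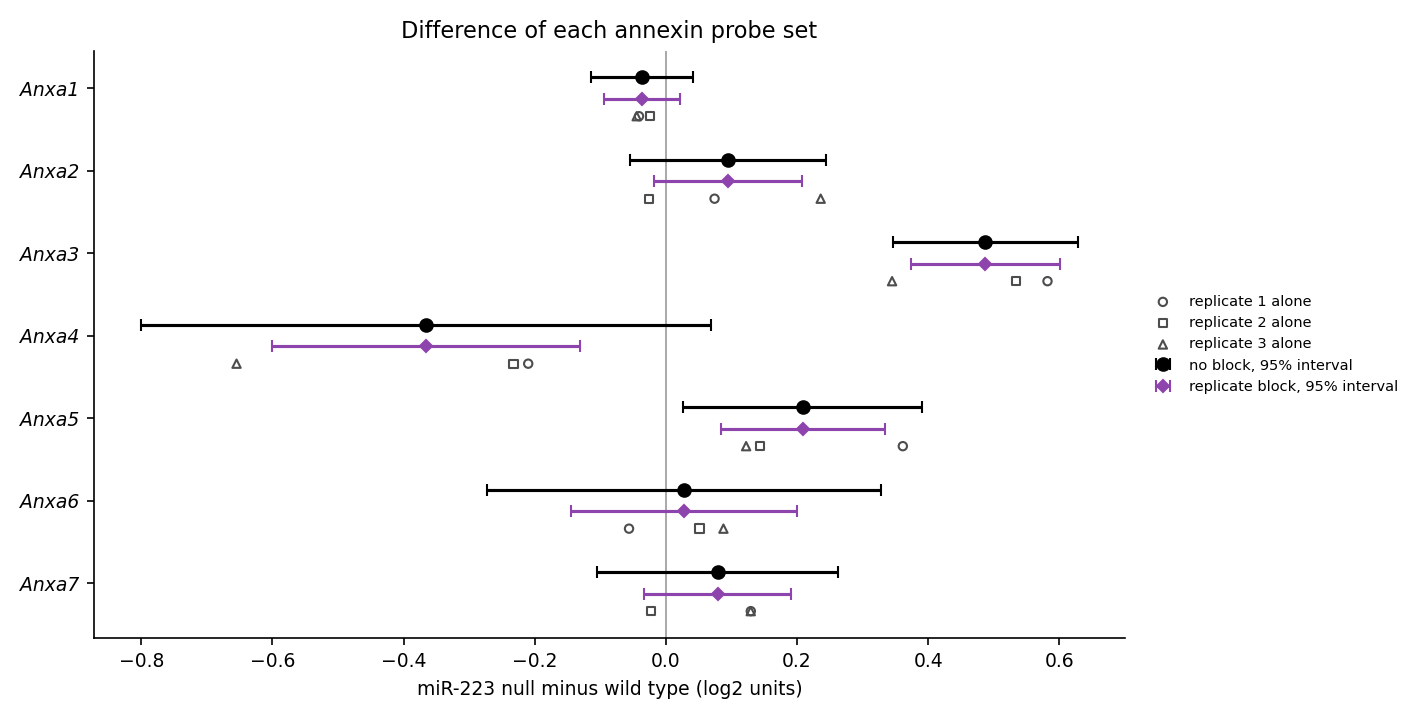
Difference between miR-223 null and wild-type neutrophils in log2 units (x axis) for each annexin probe set, with limma 95% intervals without the block (black) and with the replicate block (purple), and the difference in each replicate pair (open symbols). The unblocked interval excludes 0 for Anxa3 and Anxa5, and the blocked interval also for Anxa4; these intervals are not adjusted for the number of probe sets.

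The 7 annexin probe sets did not all differ in 1 direction, though neither of the lower ones, Anxa1 and Anxa4, was called in either fit. Of the 7 probe sets 5 were higher and 2 lower in null cells, with a median difference of 0.08 log2 units and a median size of 0.09. Over all 27022 tested probe sets the median difference was -0.01 and the median size 0.11 log2 units, and 12825 were higher and 14197 lower. Anxa1, Anxa3, Anxa4 and Anxa5, 4 of the 7, went one way in all 3 pairs, beside 46.6% of all tested probe sets and 61.5% of the brightest 9007. At an unadjusted limma p under 0.05 there were 2 annexins without the block (Anxa3 and Anxa5) among 2881 probe sets, and 3 with it (Anxa3, Anxa4 and Anxa5) among 7073.

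**Figure D3:**
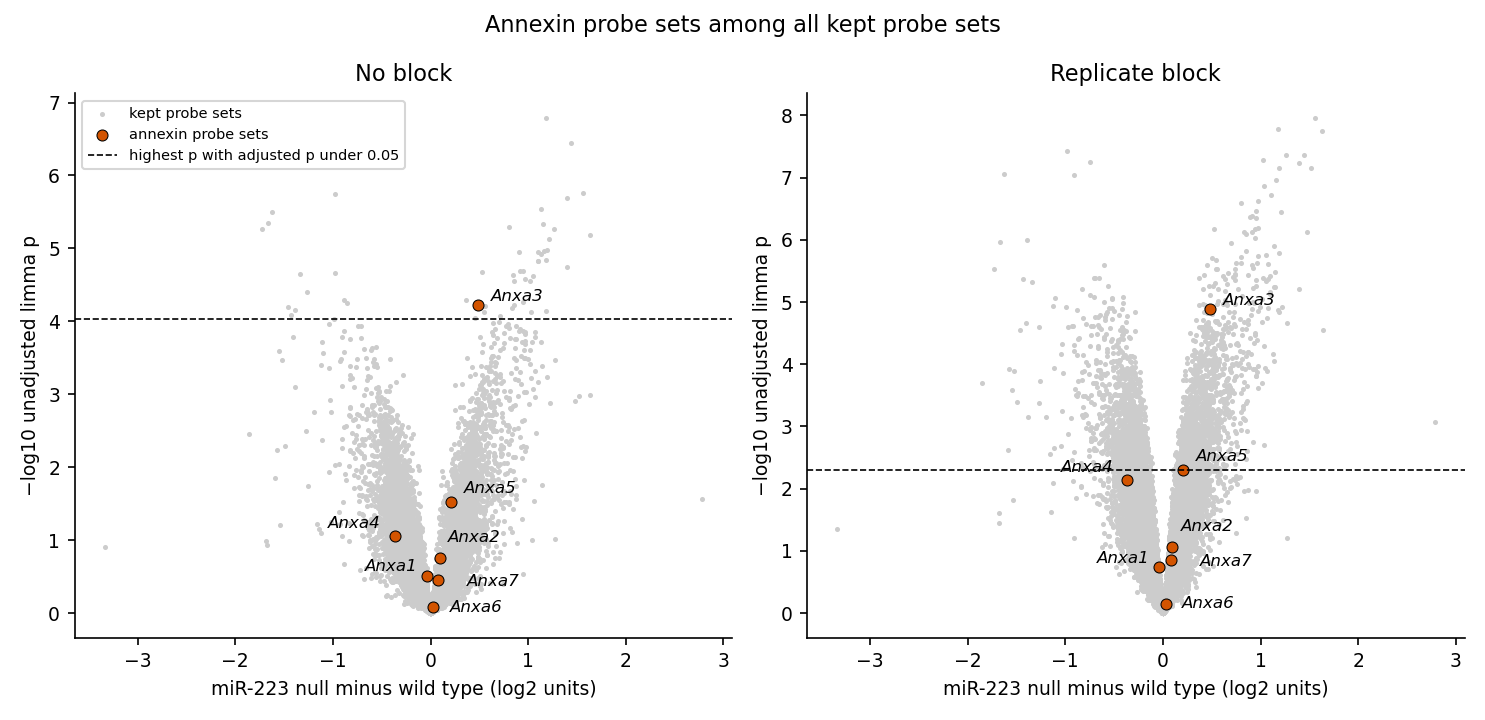
Difference in log2 units (x axes) against −log10 of the unadjusted limma p (y axes) for the 27022 tested probe sets (grey) and the 7 annexin probe sets (orange), without the block (left) and with it (right). Anxa3 lies above the dashed line of called probe sets in both panels, Anxa5 lies on it at the right, and the other annexins lie below it.

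The Anxa3 difference was set against that of each of the other 6 annexins as a ratio within each array. The log2 ratio was higher in null than in wild-type cells by 0.85 against Anxa4, 0.46 against Anxa6, 0.41 against Anxa7, 0.39 against Anxa2 and 0.28 against Anxa5. Against Anxa1 it was higher by 0.52, a value that rests on a probe set near the top of the scale, where compression was not tested. The ratio was higher on all 3 null arrays than on any wild-type array in each of these 6 comparisons (exact two-sided permutation p = 0.1 each and 0.1 after Benjamini-Hochberg adjustment over the 6). That is the smallest p that 3 arrays against 3 can give, so the test cannot pass 0.05. Anxa3 had the highest null minus wild-type difference of the annexins followed. With Anxa3 as the reference, the mean ratio therefore had to be higher in null cells in all 6 comparisons. The 6 comparisons also share the same Anxa3 values, so their agreement in direction is not further evidence for the Anxa3 rise. Against Anxa5 the ratio differed by 0.22, 0.39 and 0.22 log2 units in the pairs of replicates 1, 2 and 3. Against Anxa2 it differed by 0.51, 0.56 and 0.11, the last in replicate 3, where Anxa2 was at its highest in null cells.

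Among the annexins, the array pattern most like that of Anxa3 was that of Anxa5. Over the 6 arrays, 3 of each genotype, Pearson's r was 0.89 between Anxa3 and Anxa5, 0.79 between Anxa5 and Anxa7 and 0.87 between Anxa1 and Anxa4. Differences between genotypes and between replicates both enter these values. Anxa3 and Anxa5 were each higher on every null array than on any wild-type array. Anxa2 and Anxa4 ran opposite to each other (r = -0.92). These correlations describe the 6 arrays only. Of the other 27015 tested probe sets, 145 (0.537%) reached an r of 0.95 or more with Anxa3. The closest were 1440942_AT (r = 0.997, difference 0.21 log2 units, limma adjusted p = 0.46) and 1439521_AT (r = 0.997, difference 0.27 log2 units, limma adjusted p = 0.313). Neither passed, and gene names for them were not given. They were picked as the highest of 27015 correlations, and both were dim. Their signals were 5.35 to 5.63 for 1440942_AT and 4.26 to 4.59 for 1439521_AT, where the lower limit for testing was 4.08.

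**Figure D4:**
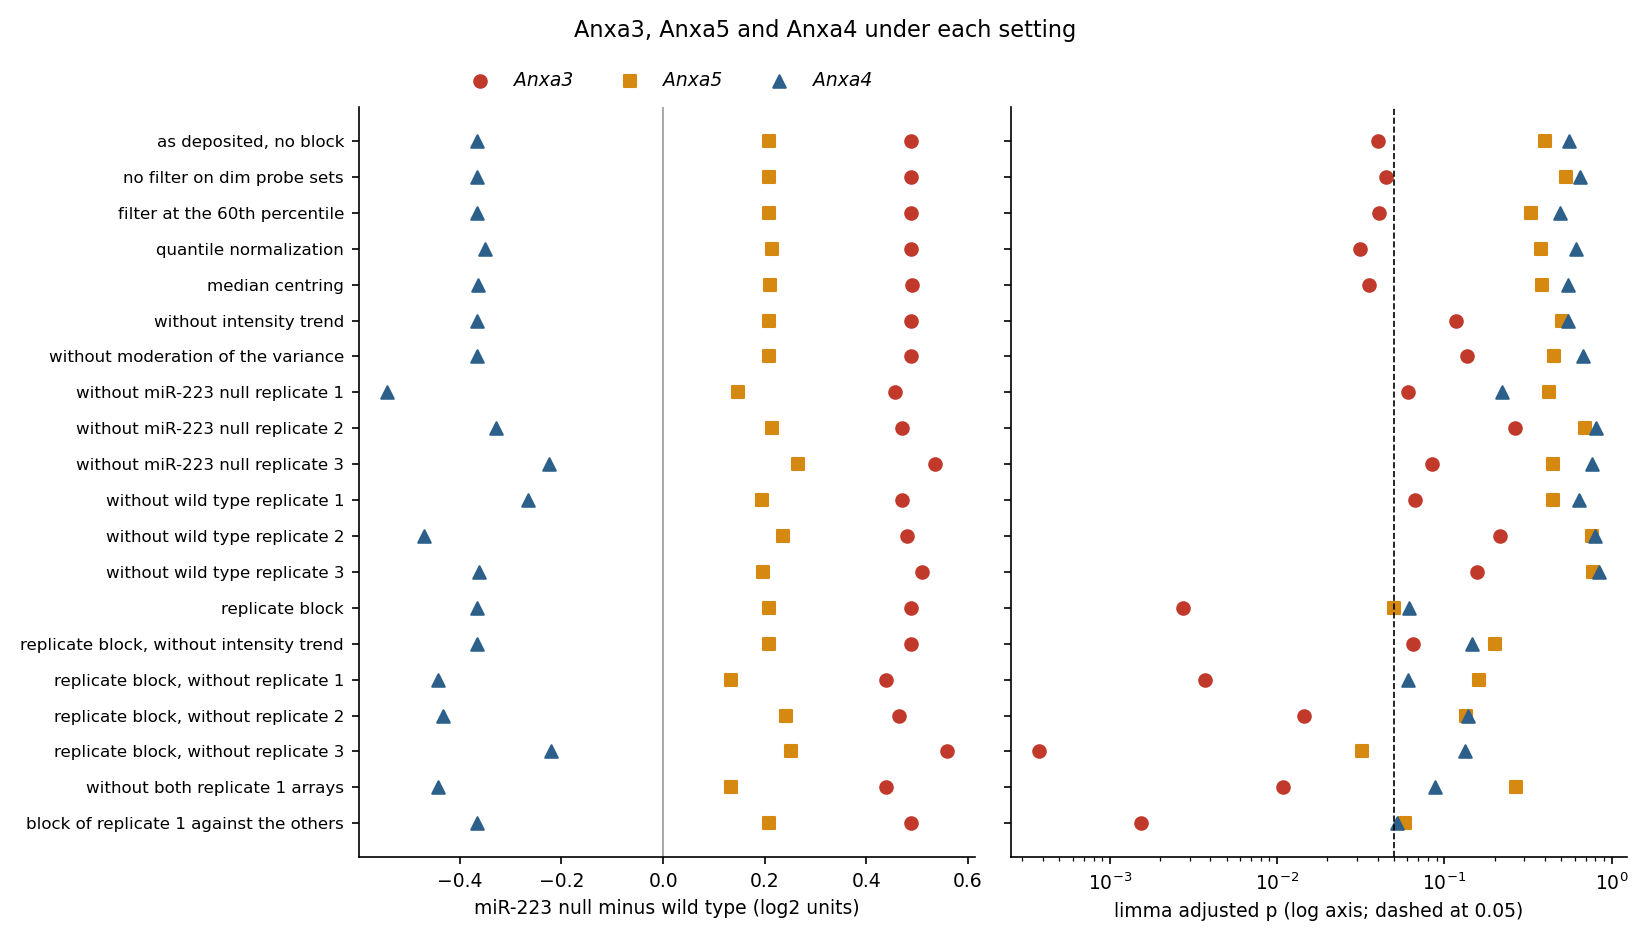
Difference in log2 units (left x axis) and limma adjusted p (right x axis, logarithmic, dashed at 0.05) of Anxa3, Anxa5 and Anxa4 under each setting of the analysis, 1 setting per line. Anxa3 stays between 0.44 and 0.56 log2 units throughout, while its adjusted p falls on both sides of 0.05.

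RNA integrity was read from 3' and 5' control probe sets, 1 at each end of beta-actin and of Gapdh. The 3' minus 5' difference of beta-actin ranged from 0.18 to 0.28 log2 units on null and from 0.15 to 0.26 on wild-type arrays, and was higher on the null array in 3 of 3 pairs. For Gapdh it ranged from -0.11 to 0.07 on null and from -0.09 to -0.06 on wild-type arrays, a wider spread on the null arrays. The part of these in the annexin values was not tested. In RNA from a bulk culture, fewer cells of a type and less of an mRNA per cell cannot be told apart, which holds for every annexin described.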

How the data were processed

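mRNA was measured in 6 samples of cultured mouse neutrophils on Affymetrix arrays. The deposited table holds log2 intensities. Per the submitters' processing notes, GCOS was used, in a role that is not stated. Background correction, normalization and probe summary are not given in the sources used here. The log2 scale was read from the values. Group and replicate number came from the sample titles.

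Control probe sets (64) were set aside, and the 27022 others at or above the 40th percentile of mean signal were compared by limma (version 3.58.1, under R 4.3.3; linear model, eBayes with intensity trend, two-sided, Benjamini-Hochberg adjusted), after a test of the code on simulated data. The replicate number as a block was the paired alternative. Deviations from the group means correlated at r = 0.70, 0.30 and 0.48 within pairs 1, 2 and 3, all over 0.1, which meets the rule for pairing, so blocked values are given beside the unblocked ones. Standard errors and intervals are those of the fit without the block unless the block is named. Mismatched null 3 and wild-type 2 reached 0.41, and null 2 and wild-type 3 reached 0.21, both also over 0.1. The rule therefore cannot tell how replicates 2 and 3 pair, so their pairing is less sure, and it comes from the data. No 2 arrays were copies: at most 71 of 45101 values were identical. The precision is limited by 3 arrays per group.

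Named are all 7 annexins and, by likeness to Anxa3, the annexin with the largest difference, 2 probe sets by identifier. The members and lists were chosen with earlier results of these data known. Fixed lists of annexin partners, receptors and cell type markers, and other annexin genes, were not analysed here because no table given with the data pairs probe sets with genes; the 7 annexin names come from the rule that chose them.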

Additional observations from a re-analysis of the deposited data

How the results depend on the processing

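The differences of Anxa1, Anxa2, Anxa3, Anxa4, Anxa5 and Anxa7 kept their direction in all 19 other settings run. Anxa3 passed in 10 of the 19, with differences of 0.44 to 0.56 log2 units. It did not pass without the intensity trend (limma adjusted p = 0.118), without moderation of the variance (0.137), with the replicate block but no trend (0.0646), or without any single array. Anxa5 passed in 2 of the 19, with the replicate block (limma adjusted p = 0.0499) and with the block without replicate 3 (0.0322), and its differences ranged from 0.13 to 0.27. Anxa4 passed in 0 of the 19, with differences from -0.54 to -0.22. Anxa6 ranged from -0.062 to 0.105 without 1 array; it turned to -0.024 without null 3, to -0.062 without wild-type 2 and to -0.0024 with the block without replicate 3, where its limma adjusted p was at least 0.976. The count of called annexins, 1 of 7, was 0 without the intensity trend, 0 without moderation, 0 with the block but no trend, and 0 without any single array. It was 2 with the replicate block, and 1 to 2 with the block and 1 pair left out, 2 of them without replicate 3. The count over all probe sets, 51, was 0 without moderation (2929 at an unadjusted p under 0.05, against 2881 in limma) and 0 to 58 without 1 array, namely 0 when null 2 (2064 with an unadjusted limma p under 0.05) or wild-type 2 (1753 so) was left out, 1 without wild-type 3 and 3 without null 3. It was 2703 with the replicate block, 191 with the block but no trend, and 606 to 2319 with the block and 1 pair left out (2045 without replicate 1). Of the fits added once the data had been seen, 1 gave 1072 calls without both replicate 1 arrays and 1 gave 2417 with a block of replicate 1 against the others, and each called 1 annexin, Anxa3. The cause of these changes was not tested. No filter, the stricter filter, quantile normalization and median centring kept the annexin count at 1, and no scaling moved the median difference by over 0.1 log2 units. The gene list alternatives were not run, as probe sets were not paired with genes.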
